A study of Arabidopsis thaliana with 24 samples.

Results

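The genes described here are those of Arabidopsis shoots whose array signal was high in the first hour of salt treatment and low at every later sampling. They were chosen by their shoot signals on these arrays. Probe sets of the ATH1 array were kept whose single listed gene name is an AGI locus code, and whose signal reached 42 on at least 2 of the 24 arrays. The group means of log2(signal + 2.2) were then formed for each sampling time in shoots. The score of a probe set was the lower of the means at 0.5 and 1 h minus the highest of the means at 3, 6, 12 and 24 h. The 100 highest scores were taken, out of 6925 probe sets that could be scored and 15170 that reached the signal minimum. The 100 probe sets stand for 98 loci, because AT2G30600 and AT5G54130 have 2 probe sets each.

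All plants were Col-0, grown on Murashige and Skoog medium with 16 h days, and all were given 150 mM NaCl on day 16, after 3 h of light. The rafts that carried the plants were lifted out while the salt was stirred in. Shoots and roots were sampled 0.5, 1, 3, 6, 12 and 24 h after the salt, with 2 arrays for each of the 12 groups. Every group had received salt, and arrays of untreated plants were not analysed here. Each late value is therefore set against the first hour of salt and not against unstressed plants, and time after salt cannot be told apart from time of day. Whether both arrays of one group stem from independent plant material is not given in the labels, and the p-values therefore rest on a spread that may be partly or wholly technical.

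Salt stress reaches a plant in phases. The roots meet a drop in water potential at once, signalling through calcium, abscisic acid and other hormones follows, growth slows, and sodium then builds up in the shoot. Genes of growth, such as those for ribosomal proteins and for enzymes that loosen or rebuild the cell wall, are among those whose transcripts are known to decline when growth is held back. Lifting and stirring are also mechanical stimuli, and genes that respond to touch or wounding are known to peak within the first hour and to decay afterwards. Of the member genes, the gene table used here gives an alternative name for AT2G31110 (TBL40) and AT3G52060 (GnTL) alone. The protein roles given below are general knowledge of these locus codes and were not read from the files.

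The arrays matched their labelled tissue. The photosynthetic markers PRK and RCA averaged 3845 ± 745 and 4900 ± 1010 in shoots, against 28.1 ± 13.0 and 134 ± 85.3 in roots (SD over the 12 arrays of each tissue), and the root marker PYK10 averaged 474 ± 227 in shoots, against 3484 ± 430 in roots. Only 3 of 8 listed shoot markers and 2 of 6 listed root markers had a named probe set. The 2 arrays of a group correlated at 0.961 to 0.984 in 11 groups. The pair of root arrays at 12 h stood apart, with a correlation of 0.857 and with 2902 probe sets, 21 of them members, at least 2-fold apart. Because of that pair, root results are also given without the 12 h arrays where this changes them.

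In shoots the scores ran from 2.96 for AT1G06830, a margin of 7.76-fold between its lower early and its highest late mean, down to 0.61, a margin of 1.53-fold. The median score was 0.83, 29 scores were above 1 and 5 were above 2. These shoot values chose the members and are a description with no test. The last members inside the rule were AT3G16780 at 0.615, AT4G12600 at 0.613 and AT4G25260 at 0.609, and the first outside it were AT5G25440 and AT5G64850, both at 0.606, and AT5G12470 at 0.605. Scores at this edge differ by less than the spread between arrays, and the last ranks carry no order.

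AT1G06830, a gene of the glutaredoxin family of small redox proteins, led the set. Its shoot signals lay between 11.7 and 21.2 (median 17.9) on the 8 arrays of 3 to 24 h, against 183 and 172 at 0.5 h and 165 and 282 at 1 h. No late array came near an early one. In roots the gene was dim at every time, between 5.47 and 11.6 on the late arrays and between 5.18 and 14.0 on the early ones.

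AT4G21870, a gene of the small heat shock protein type of chaperone, had shoot signals of 61.8 to 88.1 (median 78.3) from 3 h on, against 413, 594, 502 and 457 on the 4 arrays of 0.5 and 1 h. AT1G66940 had 67.4 to 104 (median 81.5) from 3 h on, against 370, 406, 559 and 527 in the first hour. Both were flat once low, with all 8 late arrays within a narrow band. AT2G34510, a cell wall protein of the DUF642 family, had 75.1 to 142 (median 95.7) late, against 351, 372, 340 and 331 early. None of these 3 genes is prominent in roots, where their signals stayed at or under 30.5 on every array.

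AT5G44020 and AT1G04040 encode acid phosphatases of the vegetative storage protein type, a class of proteins that shoots accumulate as nitrogen reserves. AT5G44020 had shoot signals of 68.7 to 195 (median 127) from 3 h on, against 992, 998, 914 and 812 in the first hour. AT1G04040 had 35.4 to 106 (median 67.1) late, against 245, 283, 260 and 261 early. AT3G10720, a pectinesterase, had 51.8 to 122 (median 66.9) late, against 544, 377, 411 and 382 early. In these 3 genes the late arrays scattered more, relative to their level, than the early ones, without reaching them.

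The next 5 genes had their lowest mean shoot signal at 12 h. AT3G49160, of the pyruvate kinase family, had mean shoot signals of 185, 117, 31.7, 9.44, 5.75 and 9.48 at 0.5, 1, 3, 6, 12 and 24 h. AT3G22060, a secreted protein with cysteine-rich repeats, had 12.6 to 61.2 (median 29.8) late, against 168, 225, 151 and 181 early. AT5G28630, a glycine-rich protein, had 2.71 to 31.4 (median 12.6) late, against 107, 105, 61.4 and 64.0 early. AT2G24600, an ankyrin repeat protein, had 17.5 to 43.1 (median 33.9) late, against 128, 183, 99.1 and 113 early, and AT3G45730 had 2.11 to 10.5 (median 5.37) late, against 34.8, 45.8, 41.7 and 19.5 early. In each of the 5 the early and late shoot arrays did not overlap, and the roots held more signal than the shoots at the later times.

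**Figure D1:**
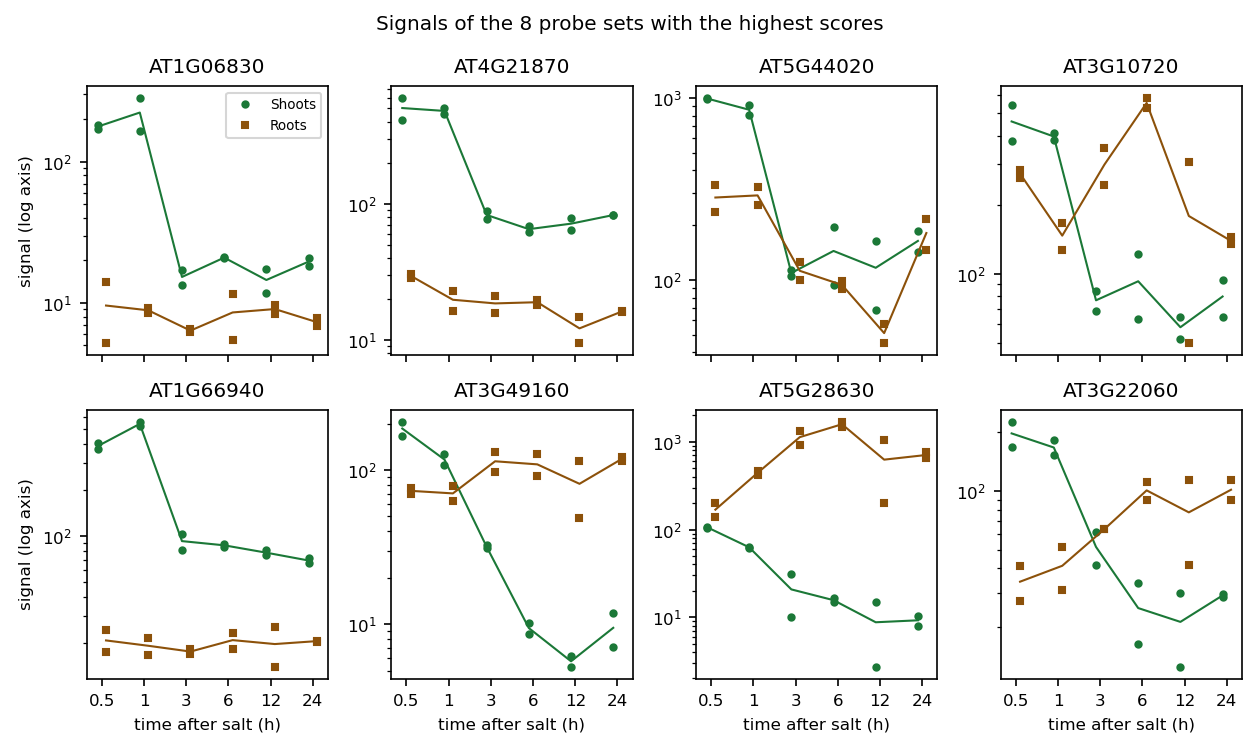
Array signals (log axis) of the 8 probe sets with the highest scores at 0.5 to 24 h after salt, with shoots as green circles, roots as brown squares and lines through the means of the 2 arrays. Shoot signals of all 8 are low from 3 h on, AT1G06830 at 11.7 to 21.2 against 165 to 282 early, while root signals are dim in AT1G06830, AT4G21870 and AT1G66940 and high in AT5G28630.

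Over the 100 probe sets, the mean late shoot signal was 40.8% of the mean early signal at the median, between 7.07% for AT5G19120, of the aspartyl protease family, and 60.3%. All 8 late arrays lay below all 4 early arrays for 96 members, a pattern seen in 8.31% of the 15170 probe sets, and the rule itself asks for nearly that. The exceptions were AT2G42900, AT4G17350, AT1G70985 and AT1G14120. The early mean signal ran from 14.5 to 4088, with a median of 212, and since probe sets differ in brightness these levels do not rank the genes. The highest belonged to AT2G45180, a small secreted protein of the lipid-transfer and protease-inhibitor type, with 468 to 2583 (median 1854) late, against 4034, 4460, 4080 and 3777 early. Its single low late array, at 468, was one of the pair at 12 h. In whole shoots and whole roots, fewer cells of a type and less RNA per cell cannot be told apart. The summed signal of the 3 shoot markers in shoots was 5972 to 9853 late, against 9358 to 11472 early, and that of the 2 root markers was 209 to 1049 late, against 425 to 606 early. Their part in these shoot values was not tested.

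Signals were lowest at 3 h for 10 members, at 6 h for 33, at 12 h for 36 and at 24 h for 21. Of the 100, 70 were higher at 0.5 h than at 1 h. AT5G19120 was the extreme case, with signals of 1179 and 1368 at 0.5 h, 158 and 77.1 at 1 h, and 27.5 to 72.4 (median 46.4) from 3 h on. AT5G14120, a transporter of the major facilitator superfamily, had 2024 and 2179 at 0.5 h, 1146 and 733 at 1 h, and 159 to 488 (median 316) from 3 h on. AT2G25735 likewise had 99.5 and 143 at 0.5 h, 25.5 and 22.8 at 1 h, and 0.846 to 19.4 (median 9.70) from 3 h on. Both probe sets of AT2G30600, a BTB/POZ domain protein, ran together in this way, one with 344 and 229 at 1 h, against 542 and 730 at 0.5 h, and its partner with 392 and 235, against 634 and 848.

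The opposite early order was rarer. Both probe sets of AT5G54130 were more than 2-fold higher at 1 h than at 0.5 h, the first with 150 and 169 at 0.5 h, 309 and 333 at 1 h, and 15.4 to 82.7 (median 35.6) later. The second had 62.9 and 74.5 at 0.5 h, 169 and 232 at 1 h, and 6.51 to 44.9 (median 18.4) later. These 2 probe sets were the only members with such a step. At the other end of the course, 24 h lay more than 2-fold below 3 h for 9 members and more than 2-fold above it for 1, AT5G14120, which had 317 and 450 at 24 h, against 159 and 215 at 3 h. AT3G16530, a lectin of the legume type, had 19.9 and 28.7 at 24 h, against 166 and 135 at 3 h, and AT5G63180, a pectin lyase-like protein, had 46.5 and 38.8, against 129 and 290.

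Set against roots, 67 members had the higher signal in shoots in the first hour and 40 had it from 3 h on, with 28 that were higher in shoots early and higher in roots late. At least 4-fold higher in shoots were 27 members early and 11 late, and at least 4-fold higher in roots were 4 early and 14 late. The rule fixed the lower late shoot signals, so that these shifts towards roots follow largely from the choice of members. The same counts over all probe sets were not made. AT5G63180 was the most shoot-biased, with a ratio of the shoot to the root mean of 223 early and 56.6 late, its root signals being at most 5.20. Among the 5 most shoot-biased members, AT2G45180 alone had the larger ratio late, at 80.2 late and 40.7 early. Of the 100, 56 reached a signal of 42 on all 12 root arrays and 17 on none, so that root changes of these 17 rest on dim signals. Another 6 members reached 42 on fewer than 2 shoot arrays and passed the signal minimum through their root arrays, AT3G45730, AT5G05790, AT5G48530, AT4G11290, AT5G06800 and AT1G14120.

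The score did not use the root arrays, which allow a test, but the signal minimum did, since any 2 of the 24 arrays could meet it. Root groups were compared with limma over all 15170 probe sets, and a probe set was called where its Benjamini-Hochberg adjusted p was under 0.05 and its change at least 2-fold. In the mean of 3 to 24 h against the mean of 0.5 and 1 h, 18 of the 100 members fell, where 4.58% of all tested probe sets did, and 7 rose, where 7.36% did. The share that rose was thus near that of all probe sets, and the share that fell was above it. Of the 6 members that met the minimum through their root arrays, 1 fell and 3 rose, and of the other 94 members 17 fell and 4 rose. The median log2 difference was -0.39 over the members and -0.12 over all probe sets, and 70 members had a difference below 0. All 8 late root arrays lay below all 4 early ones for 32 members, against 16.4% of all probe sets, and above them for 5, against 6.35%. With no fold limit 49 members fell and 16 rose, and with a 3-fold limit 4 fell and 3 rose. With a pseudocount of 16 in place of 2.2, 10 fell. Without the 12 h root arrays 17 fell and 9 rose. The shares of all probe sets called under these other settings were not counted, and 4.58% and 7.36% do not apply to them. The summed signal of the shoot markers in roots was 75.6 to 402 late, against 140 to 199 early. The highest late sums were those of 24 h, at 316 to 402, above every early root array. Their part in the root results was not tested.

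By single time against 0.5 h, no member was called in roots at 1 h in either direction by limma, where 0.0132% of all probe sets fell and 0.376% rose. At an unadjusted p under 0.05, 7 members were lower and 3 higher at that time, with no share of all probe sets counted. At 3 h 13 members fell (4.85% of all probe sets) and 12 rose (8.21%). At 6 h 29 fell (13.2%) and 15 rose (11.0%). At 12 h 27 fell (6.70%) and 4 rose (6.84%), and at 24 h 16 fell (6.53%) and 8 rose (8.04%). The same 7 members fell at all 4 later times, AT5G11420, AT3G06680, AT3G61210, AT2G45180, AT5G58090, AT2G32060 and AT4G25260. The members that rose at all 4 were AT5G48530, AT3G16530 and AT1G52200. Of these, AT5G48530 reached the signal minimum only on root arrays from 3 h on, so that its rise follows from that minimum. Only AT1G60010 was called in both directions, and 50 members were called at none of the 4 times. How many of all probe sets were called at all 4 times, in both directions or at none was not counted. These member counts therefore have no share to be set against.

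Several of these counts rest on single arrays. The 12 that rose at 3 h became 5 when replicate 2 of the 3 h roots was left out. The 4 that rose at 12 h became 1 when replicate 1 of the 12 h roots was left out and 10 when replicate 2 was, and they became 2 or 1 when replicate 1 or 2 of the 0.5 h roots was. The 8 that rose at 24 h became 2 or 5 when replicate 1 or 2 of the 24 h roots was left out, and 5 or 4 when replicate 1 or 2 of the 0.5 h roots was. Among the members called at all 4 times, the 24 h call ended on leaving out a single array for AT5G11420 (adjusted p up to 0.230), AT2G45180 (up to 0.0596), AT3G06680 (0.0649), AT5G48530 (up to 0.118) and AT1G52200 (0.0559), and AT4G25260 came under 2-fold when replicate 2 of 0.5 h was left out, at -0.95, or replicate 1 of 24 h. With 1 h in place of 0.5 h, 4 members rose at 3 h and 2 at 12 h, and 10 fell at 24 h.

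**Figure D2:**
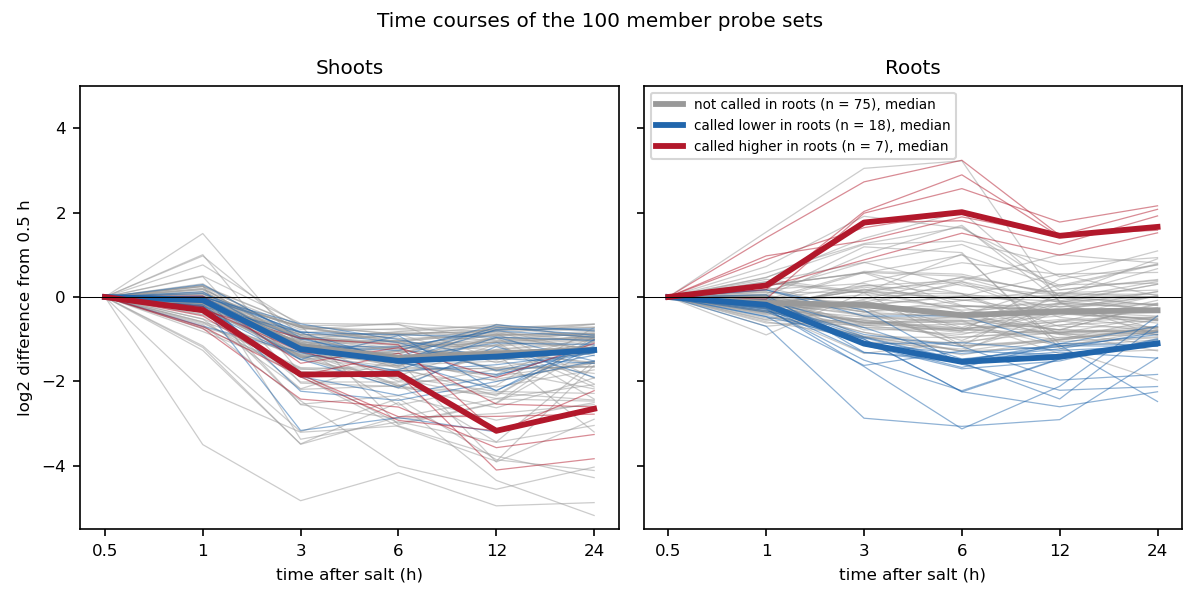
Log2 difference of each of the 100 probe sets from 0.5 h at 1 to 24 h after salt, in shoots on the left and roots on the right, with 1 thin line per probe set and thick lines for the medians of those called lower (blue, n = 18), called higher (red, n = 7) or not called (grey, n = 75) in the late root comparison. All lines are below 0 in shoots from 3 h on, as the rule asks, while in roots they spread to both sides, and the 7 red genes are the lowest of the 3 classes in shoots at 12 h with a median of -3.17.

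Ribosomal protein genes were the largest functional group among the members, with 11 probe sets, 10 of which had the higher early signal in roots. How many of the 6925 scored probe sets are for ribosomal proteins was not counted, so that the 11 have no share to be set against. This group, like the smaller ones below, was put together after the values had been seen and is given by counts and medians alone. Their late shoot signal was 40.5% to 57.9% of the early one. AT3G06680, for a protein of the large subunit, had shoot signals of 197 to 291 (median 257) from 3 h on, against 604, 526, 545 and 520 in the first hour. AT2G27710, for an acidic P2 protein of the ribosomal stalk, had 441 to 687 (median 623) late, against 1267, 1160, 1199 and 1145 early. All 11 were down to a like extent and partly back up at 12 h, with medians of -0.07, -1.16, -1.35, -0.80 and -0.90 on the log2 scale at 1, 3, 6, 12 and 24 h against 0.5 h in shoots.

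In roots 4 of the 11 passed the late call and 7 did not. The median log2 difference of the 11 late against early was -0.89, beside -0.12 for all probe sets, and for 10 of them no late root array reached an early one, the exception being AT2G40010, the stalk protein P0, where 16.4% of all probe sets show such a gap downwards. By the call, 4 of the 11 fell late against early, where 4.58% of all probe sets did. AT3G06680 had root signals of 128 to 349 (median 225) late, against 631, 640, 478 and 559 early, a log2 change of -1.41 ± 0.15 (SE, limma adjusted p = 3.53e-06). AT2G20450 changed by -1.05 ± 0.14 (adjusted p = 1.56e-05), AT2G39390 by -1.03 ± 0.10 (adjusted p = 1.33e-06) and AT2G32060 by -1.01 ± 0.10 (adjusted p = 9.07e-07). The last 3 sat just past the 2-fold limit and missed it with each array centred on its median, at -0.97, -0.95 and -0.94, with adjusted p-values that stayed under 0.05. AT2G39390 and AT2G32060 also missed it without single root arrays, among them replicate 1 at 12 h, at -0.97 and -0.98, and AT2G39390 without both 12 h root arrays, at -0.97.

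At 6 h in roots 8 of the 11 fell, where 13.2% of all probe sets did, and the group's median was -1.28. The counts at 3, 6, 12 and 24 h were 2, 8, 7 and 3. AT3G06680 led at 6 h with -2.22 ± 0.25 (adjusted p = 8.86e-06). The genes that missed the call at 6 h were AT4G13170 at -0.75 ± 0.16, AT2G27710 at -0.94 ± 0.15 and AT2G40010 at -0.65 ± 0.30. AT2G27710 passed it after quantile normalization of the arrays, at -1.19. With 1 h in place of 0.5 h, AT3G10610, AT2G32060, AT4G17390 and AT3G16780 came under the 2-fold limit at 6 h, at -0.95, -0.98, -0.94 and -0.95. Ribosomal proteins are encoded by families of close copies, and how far a probe set separates its copies was not examined here, so that a value may belong to more than the named locus. AT4G12600, a member outside this group, ran beside it, with root signals of 192 to 356 (median 282) late, against 673, 692, 597 and 693 early, and fell by 1.29 ± 0.13 (log2, adjusted p = 1.89e-06).

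**Figure D3:**
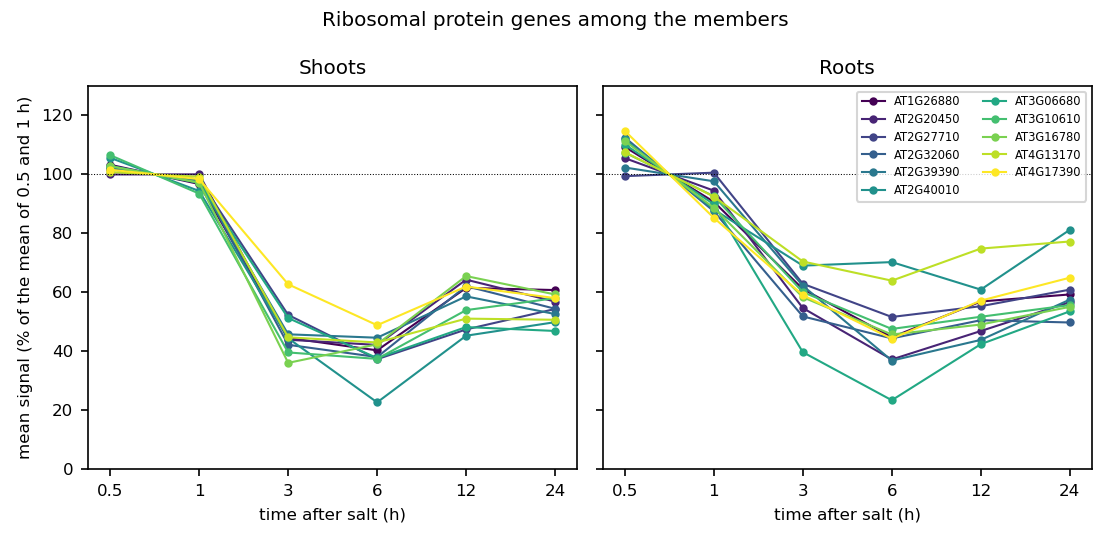
Mean signal of the 11 ribosomal protein genes as a percentage of the mean of their 0.5 and 1 h groups, at 0.5 to 24 h after salt, in shoots on the left and roots on the right, with 1 line per gene. The lines run close together in both tissues and are lowest mostly at 6 h, with AT2G40010 the lowest in shoots and AT3G06680 the lowest in roots.

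Of the 9 genes for cell wall proteins, 3 fell in roots late against early and none rose, where 4.58% and 7.36% of all probe sets did. AT5G58090, a glycosyl hydrolase of the beta-glucanase family, had root signals of 84.4 to 113 (median 90.1) late, against 268, 227, 210 and 202 early, and fell by 1.26 ± 0.09 (log2, adjusted p = 1.07e-07). Its shoot signals were 64.6 to 142 (median 77.4) late, against 249, 245, 224 and 198 early, so that the 2 tissues ran at like levels. AT5G11420, the other DUF642 protein, had 7.84 to 25.9 (median 20.0) late in roots, against 36.2, 58.3, 38.6 and 40.4 early, and fell by 1.33 ± 0.21 (log2, adjusted p = 6.76e-05). AT4G25260, of the pectin methylesterase inhibitor family, had 31.4 to 53.5 (median 42.3) late, against 100, 119, 79.1 and 77.5 early, and fell by 1.10 ± 0.13 (log2, adjusted p = 8.77e-06). AT5G11420 and AT4G25260 missed the 2-fold limit with a pseudocount of 16, at -0.86 and -0.90.

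The remaining wall genes were not called late against early in roots. AT2G31110, of the trichome birefringence-like family, fell at 6 h by 1.10 ± 0.18 (log2, adjusted p = 1.57e-04), a call lost with 1 h in place of 0.5 h (-0.51), with a pseudocount of 16 (-0.89) and with median centring (-0.98). The pectinesterase AT3G10720 had root signals of 582 and 528 at 6 h, against 284 and 261 at 0.5 h, a log2 difference of 1.02 ± 0.53 that missed the threshold (adjusted p = 0.118). Without the 12 h root arrays, which carry much of its spread at 307 and 49.7, the same difference had an adjusted p of 0.00396. AT1G14890 and AT3G07010, an inhibitor-domain and a pectin lyase-like protein, differed late by -0.31 ± 0.11 and 0.13 ± 0.13.

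Both acid phosphatase genes fell in roots and were closer to their first level again at 24 h. AT1G04040 had mean root signals of 470, 388, 149, 52.5, 113 and 346 at 0.5, 1, 3, 6, 12 and 24 h, with a log2 change at 6 h of -3.13 ± 0.36 (adjusted p = 1.08e-05). Late against early it changed by -1.70 ± 0.22 (adjusted p = 1.61e-05). AT5G44020 had means of 284, 292, 112, 93.9, 51.0 and 181, and changed by -1.51 ± 0.21 late against early (adjusted p = 3.24e-05). Neither passed the call at 24 h, at -0.45 and -0.65. In shoots the same genes had not come back at 24 h, with 76.7 and 106 for AT1G04040 and 142 and 186 for AT5G44020.

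The 2 GDSL lipase genes differed from this and were still low in roots at 24 h. AT1G29660 had root signals of 12.9 to 64.3 (median 27.5) late, against 119, 116, 85.4 and 84.3 early, and fell by 1.79 ± 0.25 (log2, adjusted p = 2.35e-05). AT5G45670 had root signals of 5.58 and 12.8 at 24 h, against 49.6 and 67.6 at 0.5 h. Its log2 change of -2.48 was the largest fall of a member at 24 h. Late against early AT5G45670 changed by -1.21 ± 0.19 (adjusted p = 6.77e-05), which was under the 2-fold limit with a pseudocount of 16, at -0.85.

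The largest fall in roots late against early was that of AT2G45180. It had root signals of 11.99 to 49.9 (median 15.1) late, against 134, 115, 85.6 and 67.1 early, and fell by 2.22 ± 0.23 (log2, adjusted p = 2.23e-06). AT1G21050 had 57.2 to 259 (median 76.4) late, against 283, 308, 322 and 343 early, and fell by 1.64 ± 0.15 (log2, adjusted p = 7.51e-07), with 3 h still close to the start. AT4G11290, a secreted peroxidase, is a root gene by its levels, with 44.3 to 128 (median 79.7) late, against 226, 215, 181 and 215 early. It fell by 1.39 ± 0.27 (log2, adjusted p = 4.37e-04), while its shoot signals never passed 32.4. AT3G61210, of the methyltransferase superfamily, was dim in roots at 6.09 to 11.2 late, against 19.4, 20.9, 19.6 and 20.2 early, and its log2 change of -1.15 ± 0.13 (adjusted p = 3.61e-06) depends on the pseudocount, at -0.59 with 16. AT3G06750 changed by -1.02 ± 0.12 (adjusted p = 6.57e-06), and it lost the 2-fold call under 7 alternatives, among them a median centring of the arrays at -0.94.

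The 3 genes for heavy-metal-associated domain proteins differed from each other in roots. AT5G24580 had root signals of 17.5 to 49.7 (median 27.4) late, against 71.0, 57.4, 53.9 and 65.5 early, and fell by 1.09 ± 0.14 (log2, adjusted p = 9.68e-06), or by 0.82, under the 2-fold limit, with a pseudocount of 16. AT5G03380 went the other way, with 672 to 1732 (median 1396) late, against 624, 638, 927 and 822 early. It rose at 3 and 6 h, by 1.33 ± 0.31 at 6 h (log2, adjusted p = 0.00249), and its late difference of 0.84 ± 0.19 and its difference of 0.86 at 6 h against 1 h were under the 2-fold limit. AT5G19090 was not called, at -0.12 ± 0.16 late. In shoots all 3 had late signals of 35.2% to 58.4% of the early ones. The 3 genes of amino acid synthesis, AT1G14810 for aspartate-semialdehyde dehydrogenase, AT2G31810 for a regulatory subunit of acetolactate synthase and AT3G23940 for dihydroxy-acid dehydratase, had late root differences of -0.56 to -0.68, all under the limit.

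The 7 members that rose in roots late against early are near the share over all probe sets (7.36%), and their low late shoot signals were fixed by the rule. Of the 7, AT3G45730, AT5G48530 and AT1G14120 met the signal minimum through their root arrays. AT1G52200, of the PLAC8 family of small cysteine-rich membrane proteins, had root signals of 303 to 1401 (median 1006) late, against 186, 192, 214 and 156 early, and rose by 2.15 ± 0.31 (log2, adjusted p = 4.23e-05). Its shoot signals were 2.33 to 29.6 (median 18.3) late, against 43.3, 72.7, 48.0 and 41.8 early. AT3G16530, the legume-type lectin, had root signals of 105 to 192 (median 156) late, against 51.2, 36.3, 95.5 and 69.9 early, and rose by 1.23 ± 0.22 (log2, adjusted p = 2.37e-04). In shoots it had 16.8 to 166 (median 49.1) late, against 304, 451, 248 and 383 early, so that shoots were the higher tissue early and roots the higher one from 6 h on.

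AT5G28630, the glycine-rich protein, had mean root signals of 168, 443, 1132, 1590, 627 and 709 at 0.5, 1, 3, 6, 12 and 24 h. It rose by 1.68 ± 0.37 late against early (log2, adjusted p = 0.00140) and by 3.24 ± 0.61 at 6 h (adjusted p = 4.66e-04). AT3G45730 had root signals of 37.9 to 231 (median 136) late, against 32.7, 45.0, 48.4 and 45.4 early, and rose by 1.55 ± 0.35 (log2, adjusted p = 0.00154). AT3G22060, the cysteine-rich repeat protein, had 41.5 to 113 (median 89.6) late, against 41.0, 27.4, 51.4 and 31.2 early, and rose by 1.10 ± 0.26 (log2, adjusted p = 0.00234). This rise was under 2-fold, at 0.97, 0.93 and 0.93, without replicate 2 of 0.5 h, replicate 2 of 1 h or replicate 1 of 12 h. AT1G14120, of the 2-oxoglutarate-dependent oxygenase family, had 230 to 432 (median 270) late, against 69.7, 120, 152 and 219 early, and rose by 1.10 ± 0.34 (log2, adjusted p = 0.0116). That call was lost when the first array of 0.5 h was left out (adjusted p = 0.0690) and when the first array of 1 h was (adjusted p = 0.0579).

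AT5G48530 had root signals of 53.3 to 305 (median 165) late, against 38.0, 33.0, 40.5 and 39.9 early, and rose by 1.92 ± 0.28 (log2, adjusted p = 4.72e-05). It reached the signal minimum only in root arrays from 3 h on, so that it had to be higher there to be tested at all. Its neighbour on chromosome 5, AT5G48540, the second cysteine-rich repeat protein among the members, is the next protein-coding gene and followed a like course. AT5G48540 had root signals of 186 to 902 (median 625) late, against 260, 202, 421 and 342 early, with a difference of 0.92 ± 0.22 that was under 2-fold, and of 1.18 without the 12 h root arrays. At 6 h it rose by 1.63 ± 0.35 (log2, adjusted p = 0.00131), or by 0.91 when set against 1 h. In shoots AT5G48530 had 2.04 to 8.80 late, against 14.8, 13.8, 12.7 and 16.8 early, and AT5G48540 had 7.64 to 48.4 late, against 97.0, 145, 65.9 and 92.1 early. Of the 7 risers, 5 were lowest in shoots at 12 h and 5 were highest in roots at 6 h, and replicate 2 of the 12 h roots lay below replicate 1 in 6 of them.

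Other members rose in roots at 6 h without a late call. AT2G25735 had mean root signals of 84.5, 245, 711, 790, 81.1 and 48.4 at 0.5, 1, 3, 6, 12 and 24 h, with a rise at 6 h of 3.23 ± 0.60 (log2, adjusted p = 4.20e-04). Without the 12 h root arrays it also passed the late call, at 1.06 (adjusted p = 0.0201), beside 0.57 with them. AT2G24600 had means of 309, 425, 818, 1262, 439 and 269, with a rise at 6 h of 2.02 ± 0.51 (adjusted p = 0.00406). Neither passed the call at 24 h, at -0.78 and -0.20, and both were low in shoots from 3 h on. AT4G02200 rose by 1.70 ± 0.37 at 6 h (log2, adjusted p = 0.00154), AT1G33590, a leucine-rich repeat protein, by 1.66 ± 0.27 (adjusted p = 1.65e-04) and AT2G16380, of the Sec14 family of lipid-transfer proteins, by 1.25 ± 0.21 (adjusted p = 2.22e-04), or by 0.80 with a pseudocount of 16. AT1G60010 rose by 1.05 ± 0.34 at 6 h (log2, adjusted p = 0.0183) and fell by 1.97 at 24 h, with root signals of 142 and 171 at 0.5 h, then 437 and 242 at 6 h and finally 43.8 and 32.9 at 24 h. Leaving out the first array of 0.5 h or of 6 h ended that call (adjusted p = 0.103 and 0.219).

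**Figure D4:**
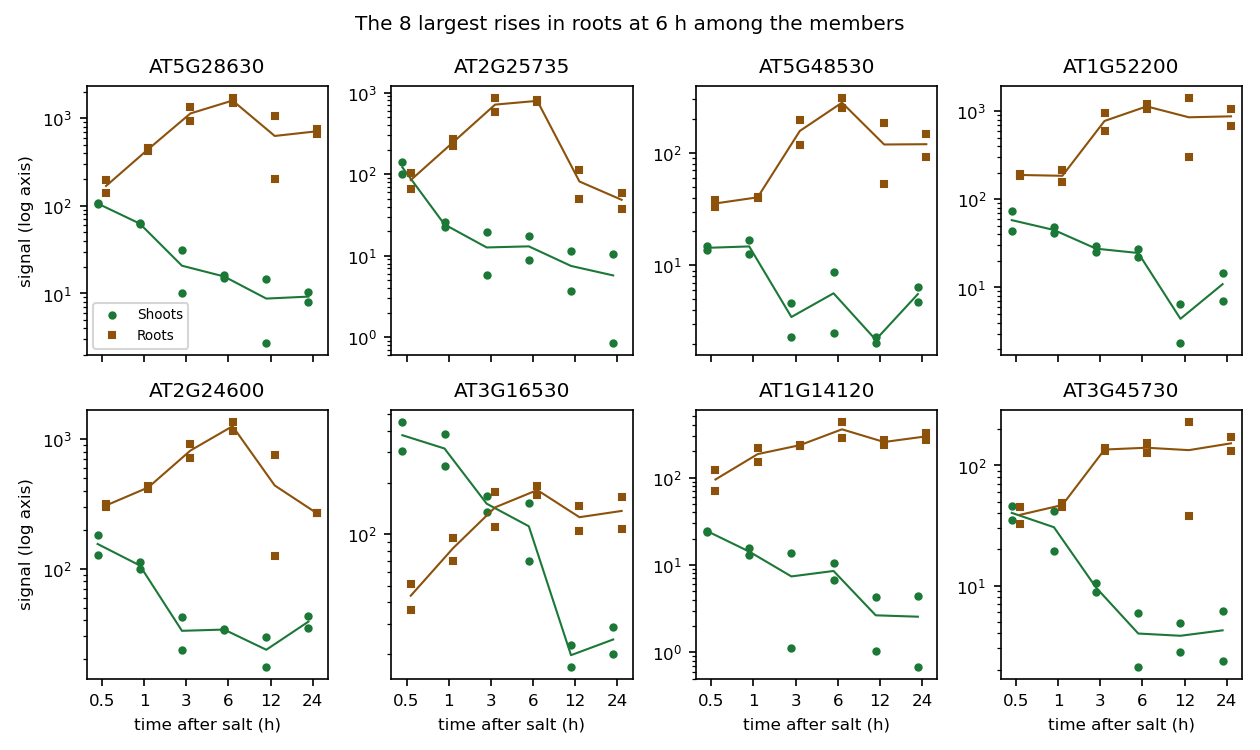
Array signals (log axis) of the 8 members with the largest rises in roots at 6 h, at 0.5 to 24 h after salt, with shoots as green circles, roots as brown squares and lines through the means of the 2 arrays. Root signals climb between 1 and 6 h while shoot signals are low from 3 h on, and the 2 root arrays at 12 h lie far apart in most panels, at 1053 and 201 for AT5G28630.

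The 100 probe sets did not share a single direction in roots, although 70 of them had a late difference below 0. The median difference late against early was -0.39, beside -0.12 over all probe sets. Among the 75 with no late call were the leading gene AT1G06830 at -0.16 ± 0.22, AT1G66940 at -0.02 ± 0.13 and AT2G34510 at -0.16 ± 0.11, all dim in roots. AT4G21870 differed by -0.52 ± 0.13 (adjusted p = 0.00351) and AT3G49160 by 0.49 ± 0.18 (adjusted p = 0.0342), both under the 2-fold limit. Both probe sets of AT5G54130 were lower in roots by similar amounts, at -0.83 ± 0.13 and -0.85 ± 0.18, and those of AT2G30600 differed by -0.27 ± 0.14 and -0.18 ± 0.15.

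**Figure D5:**
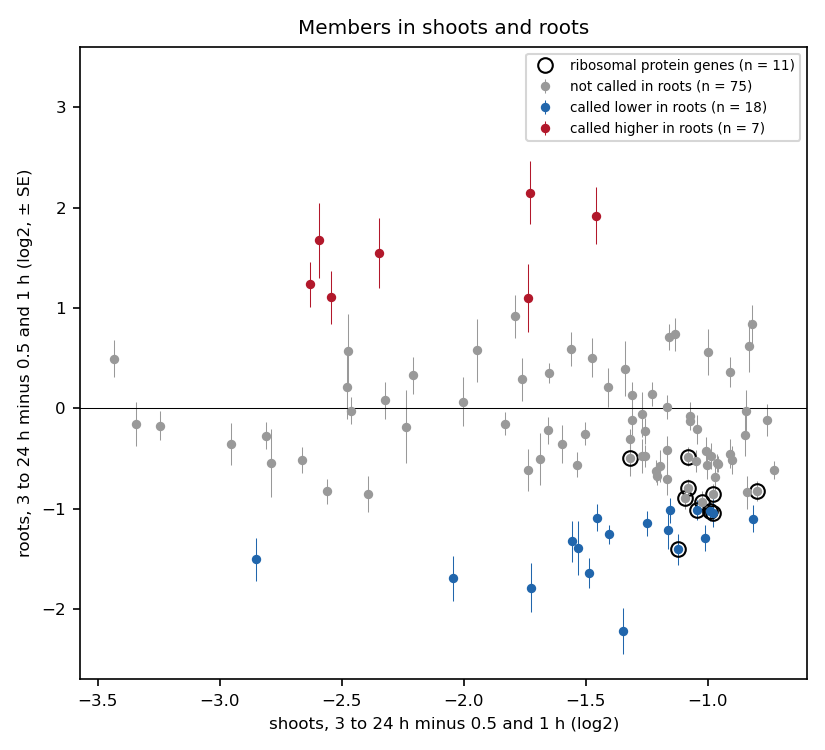
Log2 difference of 3 to 24 h minus 0.5 and 1 h in roots (vertical axis, ± SE) against the same in shoots (horizontal axis) for the 100 probe sets, with 18 called lower in roots in blue, 7 called higher in red, 75 not called in grey and the 11 ribosomal protein genes circled. All points lie below 0 on the shoot axis by the choice of members, and the ribosomal protein genes sit together at -1.41 to -0.48 in roots.

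The 98 loci lay on all 5 chromosomes, with 28, 17, 20, 12 and 21 on chromosomes 1 to 5, beside 26.4%, 14.9%, 20.0%, 14.2% and 24.5% of the scored genes. Among the members, 3 pairs had at most 2 protein-coding genes between them in the TAIR10.1 gene table. AT5G48530 and AT5G48540 were adjacent, and AT1G08580 and AT1G08610 as well as AT5G19090 and AT5G19120 had 2 genes between them.

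Of 17 lists of genes of growth, hormone response and stress, 11 had a measured gene, with 27 measured genes between them. Most listed genes were not measured. Those measured were, for example, 1 of 13 Aux/IAA repressor genes, 2 of 18 glucosinolate synthesis genes and 5 of 33 genes of rapid touch and stress responses. The remaining lists, such as that of 31 SAUR genes, had none. None of the 27 was a member, since the rule takes loci listed by code alone and nearly all of these carry a name. In shoots 5 of the 27 fell and 2 rose late against early, where 3.74% and 5.78% of all probe sets did, and in roots 3 fell and 7 rose, where 4.58% and 7.36% did. The lists were chosen with earlier results of these data known, so that these counts do not test the lists against those shares. The expansin gene EXPA8 fell in shoots by 4.36 ± 0.31 (log2, adjusted p = 1.58e-08), the cytokinin response regulator gene ARR15 by 2.09 ± 0.25 (adjusted p = 5.76e-06) and AKINBETA1, for a subunit of the SnRK1 kinase, by 1.86 ± 0.13 (adjusted p = 1.59e-08). EXPA8 was 1 of 6 expansin genes measured and the only one of them called in shoots late against early, the list's median being -0.25. In roots EXPA8, ARR15 and AKINBETA1 were not called, at -0.46 ± 0.31, 0.09 ± 0.25 and 0.09 ± 0.13. The cold and salt inducible gene COR15A rose in shoots by 5.60 ± 0.48 (adjusted p = 1.46e-07) and in roots by 2.38 ± 0.48 (adjusted p = 6.79e-04). COR47, the only other measured gene of its list, rose in shoots by 2.87 ± 0.19 (limma adjusted p = 5.52e-09). It was not called in roots, at 0.045 ± 0.186. IAA29, for an auxin response repressor, fell in shoots by 1.15 ± 0.28 (adjusted p = 0.00315) and rose in roots by 1.49 ± 0.28 (adjusted p = 3.39e-04). By single time the 2 changes did not coincide. In shoots IAA29 was called at 12 and 24 h alone, with means of 62.9 at 6 h and 8.4 at 12 h. In roots it was called at 3 and 6 h alone. XTH19, for a xyloglucan-modifying enzyme, likewise fell in shoots by 1.69 ± 0.42 (adjusted p = 0.00410) and rose in roots by 1.33 ± 0.42 (adjusted p = 0.0143). Its shoot means were 48.2 (SD 33.2), 20.1, 8.1, 9.5, 2.9 and 22.4 at 0.5, 1, 3, 6, 12 and 24 h. All but the first lay under the signal minimum, so that the shoot fall rests on dim signals. At 24 h against 0.5 h neither tissue was called, at -0.86 ± 0.69 in shoots (limma adjusted p = 0.376) and 0.34 ± 0.69 in roots. XTH19 was the only one of 4 measured genes of its family called in shoots, where XTH16 and XTH32 lay at 0.03 ± 0.35 and 0.09 ± 0.16. The differences between the tissues were not tested.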

How the data were processed

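ATH1 arrays of salt-treated Col-0 seedlings were used, 12 of shoots and 12 of roots, as 12 groups of 2. The deposited values were linear intensity signals from MAS5, per the submitters' processing notes, and on every array the mean signal without the lowest and highest 2% was 100.0; this scaling was kept. Depth has no meaning for arrays, and 2 arrays per group limit the precision. Probe sets were named through the platform annotation of GEO, in which 13513 of 22810 probe sets had 1 gene, 503 several and 8794 none, and 13436 were matched to the RefSeq gene table (TAIR10.1) through gene identifiers; 64 control probe sets were left out. Values were log2(signal + 2.2), and fold changes on this scale understate those of dim genes. Probe sets with a signal of at least 42 on at least 2 arrays were fitted with 12 group means in limma 3.58.1 (lmFit, then eBayes with a trend, R 4.3.3), with Benjamini-Hochberg adjustment over 15170 probe sets, and were called at an adjusted p under 0.05 and 2-fold. The fit was tested on simulated data. The members and gene lists were chosen with earlier results of these data known, and shoot values that chose the members were not tested. All members could be named. Values were given for the 12 highest scores, for the members called in roots, for members with opposite root and shoot values and for families with several members, and up to 4 genes per list. Families were set from general knowledge after the values were seen, because the gene table holds no product names. Alternatives changed the pseudocount, scaling, filter, trend, fold limit, starting time, replicate block and arrays. Promoter and protein sequences were not used here.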

Additional observations from a re-analysis of the deposited data

Results flagged for a closer look

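In 4 members all 8 late root arrays lay above all 4 early root arrays, and all 8 late shoot arrays lay below all 4 early shoot arrays. The shoot part was nearly fixed by the rule, and the root part is met by 5 of the 100 members, where 6.35% of all probe sets meet it. AT1G52200 had a late minus early difference in roots of 2.15 on the log2 scale, AT5G48530 of 1.92, AT3G16530 of 1.23 and AT4G17080 of 0.74. AT4G17080, which was under the 2-fold limit late against early (0.74 ± 0.16, limma adjusted p = 0.00131), had root signals of 111 to 301 (median 142) late, against 99.4, 99.7, 84.8 and 82.6 early, and shoot signals of 45.3 to 69.3 (median 56.9) late, against 140, 171, 112 and 102 early. AT5G48530 reached the signal minimum only on root arrays from 3 h on, so that its higher late root signals follow from that minimum. Its shoot signals were under the minimum on every array, and its lower late shoot signals rest on dim values. The difference between the tissues was not tested, because the shoot arrays chose the members.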

How the results depend on the processing

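The counts of members called in roots moved with the fold limit, with the starting time and, for the risers, with single arrays. With no fold limit 36, 47, 43 and 38 members fell at 3, 6, 12 and 24 h, 49 fell and 16 rose late against early, and 14 rose at 24 h. With a 3-fold limit 3, 8, 6 and 5 fell and 7 rose at 3 h, 1 at 12 h and 5 at 24 h, and late against early 4 fell and 3 rose. With 1 h in place of 0.5 h, 4 rose at 3 h and 2 at 12 h, and 10 fell at 24 h. With a pseudocount of 16, 17 fell at 12 h and 10 late against early. The cause of these shifts was not tested beyond the change of the limit itself. The shares of all probe sets called under these settings were not counted. Leaving out each array in turn gave 9 to 15 fallers and 5 to 12 risers at 3 h, 26 to 29 and 12 to 16 at 6 h, 22 to 27 and 1 to 10 at 12 h, 12 to 17 and 2 to 8 at 24 h, 15 to 18 and 6 to 9 late against early, and 0 at 1 h. The rule kept 80 to 96 of its 100 members without single shoot arrays, 46 with the mean of the early groups minus the mean of the late groups as the score, and 70 and 72 from replicate 1 or replicate 2 alone. Replicate numbers did not pair the samples (correlations of same-numbered deviations of -0.26 to 0.23 in roots), and with the replicate number as a block 18 members fell and 7 rose late against early. Over 55 members with 3 root differences each, 5547 of 5687 alternative values kept direction and side of the threshold, 117 lost the call, 23 gained it and 0 reversed. These values include fits without single shoot arrays, which leave a root difference unchanged and alter only its spread. They also include differences that were not called at the start and could not lose a call. The 5547 are therefore no measure of how stable the calls are. Promoter motifs were not run. Dim signals limit the values of the 17 members that reached 42 on no root array.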

Other observations

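Both glucosinolate synthesis genes that were measured, out of 18 listed, fell in roots late against early, where 4.58% of all probe sets did. This list and the next were chosen with earlier results of these data known. BCAT4, for an aminotransferase of methionine chain elongation, changed by -2.67 ± 0.22 in roots (log2, limma adjusted p = 2.96e-07) and by -0.53 ± 0.22 in shoots (adjusted p = 0.0677). AT2G31790, for a glucosyltransferase, changed by -1.98 ± 0.20 in roots (adjusted p = 1.88e-06) and by -0.33 ± 0.20 in shoots (adjusted p = 0.213). Of the 5 genes of rapid touch and stress responses that were measured, out of 33 listed, WRKY22, CML37 and the zinc finger gene STZ rose in roots, by 3.13 ± 0.30, 3.01 ± 0.42 and 1.21 ± 0.31. Over all probe sets 7.36% rose in roots late against early. WRKY53 and CML38 were not called there, at 0.90 ± 0.27 and -0.03 ± 0.33. In shoots WRKY22, CML37 and STZ differed by -0.87 ± 0.30, -0.01 ± 0.42 and 0.87 ± 0.31, under the 2-fold limit.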
